A study of Mus musculus with 7 samples.

Results

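In precision-cut liver slices (PCLS) kept for 3 days with valproic acid (VPA), 133 protein-coding genes were higher in each of the 4 VPA libraries than in any of the 3 untreated (CTR) libraries. They were chosen by these values. A gene had to hold at least 10 counts in all 7 libraries, and its lowest VPA level had to lie at least 25% above its highest CTR level. Levels are CPM, counts scaled to a common library total, over the genes that the mitochondrial genome does not encode. Of the 55487 genes in the table, 6113 protein-coding genes had the required counts and 138 met the rule. The rule itself leaves out 5 of these, Creb3l3, Slpi, Neu1, Atp6v1a and Saraf, which leaves 133. Because the members were selected on the difference between CTR and VPA, their differences are given as a description, without a test.

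All slices were thin discs of liver from healthy adult male Balb/c mice, cultured in supplemented WME medium and collected on day 3. CTR slices had no VPA and VPA slices had 2.5 mM VPA in the medium throughout. The sample names carry a slice culture number, 72, 74 and 71 for CTR replicates 1 to 3 and 73, 74, 71 and 72 for VPA replicates 1 to 4. The study counts 1 mouse liver as 1 biological repeat, but the labels do not say what a culture number marks, so the spread given here is the spread between these libraries. A slice holds hepatocytes, stellate cells, endothelium, macrophages and bile duct cells together, and in bulk RNA fewer cells of a type and less RNA per cell cannot be told apart.

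VPA is a branched short-chain fatty acid used against epilepsy and bipolar disorder. It inhibits class I histone deacetylases (HDAC), which remove acetyl groups from histone tails, and acetylated histones are a mark of open chromatin. In hepatocytes VPA is also activated to a coenzyme A ester and degraded in part by mitochondrial fatty acid oxidation, and it is known to cause fat accumulation in liver. In culture, HDAC inhibition is known for holding back the activation of hepatic stellate cells (HSC), the collagen-making cells of the liver.

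The promoters of 4 members are shown because they hold the motifs referred to further on. They cover 300 bases, from 250 before to 50 after the annotated start of the gene, and were taken from RefSeq on GRCm38.p6. Npy is shown as the member with the widest gap between the groups, with its GC box, GGGCGG, in capitals. The window is chr6:49822460-49822759 on the plus strand.
Npy: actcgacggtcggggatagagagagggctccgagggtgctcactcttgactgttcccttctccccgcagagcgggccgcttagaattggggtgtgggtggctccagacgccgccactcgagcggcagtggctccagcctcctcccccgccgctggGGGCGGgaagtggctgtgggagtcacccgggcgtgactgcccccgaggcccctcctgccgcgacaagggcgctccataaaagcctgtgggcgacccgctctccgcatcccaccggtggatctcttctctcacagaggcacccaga
Aff4, Napa and Gnptg are shown for the E-box TCACGTG, the letters bound by TFEB, TFE3, MITF and USF, in capitals together with its reverse complement CACGTGA where the 2 readings overlap. Their windows are chr11:53350517-53350816 (plus strand), chr7:16098330-16098629 (plus strand) and chr17:25240067-25240366 (minus strand).
Aff4: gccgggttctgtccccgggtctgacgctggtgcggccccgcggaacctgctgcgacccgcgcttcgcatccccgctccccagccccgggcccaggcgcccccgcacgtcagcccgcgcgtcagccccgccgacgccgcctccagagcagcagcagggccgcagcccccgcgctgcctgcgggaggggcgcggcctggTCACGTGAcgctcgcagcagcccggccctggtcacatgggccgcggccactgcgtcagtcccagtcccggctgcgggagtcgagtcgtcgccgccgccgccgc
Napa: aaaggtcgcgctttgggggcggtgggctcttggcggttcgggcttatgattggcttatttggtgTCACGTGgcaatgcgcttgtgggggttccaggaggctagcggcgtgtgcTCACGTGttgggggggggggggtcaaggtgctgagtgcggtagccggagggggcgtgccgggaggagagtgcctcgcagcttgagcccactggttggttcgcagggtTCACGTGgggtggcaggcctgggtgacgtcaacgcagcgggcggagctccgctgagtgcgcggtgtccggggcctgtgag
Gnptg: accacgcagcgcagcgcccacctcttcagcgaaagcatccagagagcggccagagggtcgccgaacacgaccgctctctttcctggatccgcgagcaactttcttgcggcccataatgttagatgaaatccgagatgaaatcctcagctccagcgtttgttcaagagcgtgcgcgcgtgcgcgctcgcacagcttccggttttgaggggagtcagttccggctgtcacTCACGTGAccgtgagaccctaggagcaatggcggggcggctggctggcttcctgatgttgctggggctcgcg

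The counts on genes ranged from 1743675 to 4773750 in the CTR libraries and from 1400887 to 3102450 in the VPA libraries. The minimum of 10 counts therefore stood for 2.56 to 6.71 CPM in CTR libraries and for 4.24 to 10.5 CPM in VPA libraries, so a gene low in VPA slices had to be more abundant to be considered. Mitochondrially encoded genes took 14.5 to 27.7% of the counts in CTR libraries and 23.9 to 32.5% in VPA libraries. The summed level of 26 activated HSC markers was 5448 to 8872 CPM in CTR and 3547 to 4643 CPM in VPA libraries, without overlap, and that of 20 proliferation genes was 303 to 421 and 140 to 233 CPM, also without overlap. The ranges of the 2 groups overlapped for 30 hepatocyte markers (14042 to 28898 CPM in CTR, 9686 to 26639 in VPA), 17 endothelial markers (622 to 787 and 301 to 759), 17 macrophage markers (568 to 780 and 601 to 1039) and 15 bile duct markers (871 to 1562 and 743 to 1635). Albumin (Alb) was present at 1058 to 6935 CPM, whereas the macrophage marker Adgre1 was at 0 in all 7 libraries. None of the members is on these marker lists, and the part of cell composition in their levels was not tested.

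Of the well-counted genes, 2.26% met the rule with VPA higher, and the mirrored rule, with every VPA library lower, was met by 55 genes (0.900%). Without the 25% margin, 8.65% of the well-counted genes lay wholly above CTR (no overlap between the groups) and 4.63% wholly below. The count by the rule was also made for the other 34 divisions of the 7 columns into 3 and 4, as a description. With the 4 columns higher, these gave between 1 and 109 genes, with a median of 15.5, against 138 for the VPA columns. The division with 109 genes placed CTR replicate 2 with VPA replicates 1, 2 and 4, and the next gave 60. With the 3 columns higher, the other divisions gave between 2 and 122 genes, with a median of 11, and 5 of them gave more than the 55 genes that were higher in the CTR columns.

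The size of the set and its excess over the mirrored set depended on the scaling of the libraries. With the mitochondrial rows included in the column sum, 61 genes were higher and 132 lower, so the larger group changed sides. With edgeR's TMM scaling the numbers were 88 and 100, and with DESeq2's size factors 81 and 100. The median log2 ratio of the 6113 genes was 0.10 under the rule's scaling, and the other scalings shifted it by -0.16, -0.09 and -0.10. With the mitochondrial rows included, 3 of the other 34 divisions held at least as many genes as the VPA columns, with TMM 0 and with DESeq2's size factors 1. Under all 4 scalings 51 of the 133 members met the rule, and they include each of the 20 members with the widest gap. The groups did not overlap under any of the 4 scalings in 131 members. The 20 and the 131 follow largely from choosing members by their gap under 1 of these scalings, so they are no support.

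**Figure D1:**
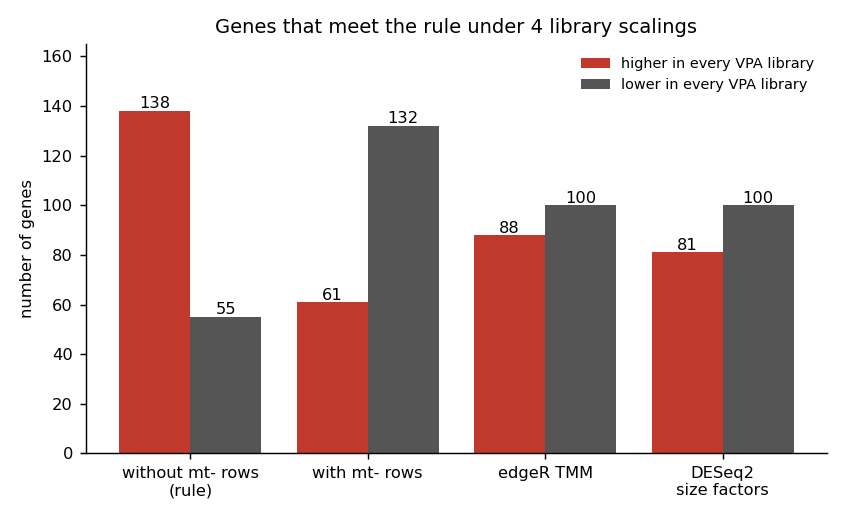
Bars give the number of the 6113 well-counted genes whose lowest value in one group lies at least 25% above the highest in the other, red for higher and grey for lower in every VPA library, under 4 library scalings. The red bar is the taller one (138 against 55) only for the scaling the rule uses and falls to 61 against 132 with the mitochondrial rows included.

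edgeR's quasi-likelihood test over 10876 genes called 1 gene higher with VPA at an adjusted p under 0.05 (0.00919%), Creb3l3, which the rule leaves out, and it called 0 of the 133 members. At an unadjusted p under 0.05 it held 397 genes higher and 503 lower over all genes. By adjusted p, DESeq2's calls at the same threshold were 39 higher and 115 lower. When edgeR was limited to the 6652 genes with at least 10 counts in all libraries, 17 were called higher (0.256%) and 19 lower. Of the 17, 10 are members (Apoa4, Tmem56, Suclg2, Adora1, Aff4, Sdccag8, Cxcl14, Npy, Ifi27l2a and Fam89a). These calls use the contrast that chose the members and are no support for them.

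The median member had a mean of 50.4 CPM over the 7 libraries, beside 63.4 CPM for the median well-counted gene. Their mean CTR level ranged from 6.03 to 1170 CPM with a median of 28.4, and their mean VPA level from 14.1 to 3180 CPM with a median of 62.9. The ratio of mean VPA to mean CTR level ranged from 1.44 to 10.4 with a median of 2.07, beside a median of 1.07 over the well-counted genes. It was at least 2 in 75 members and at least 3 in 18. The gap ratio, the lowest VPA level over the highest CTR level, reached 4.21, with a median of 1.39, and was at least 1.5 in 44 members and at least 2 in 8. In 29 members the lowest count was under 20, so that counting error alone is considerable there.

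The VPA libraries did not differ from CTR to the same degree. The median member was 2.05, 2.18, 1.93 and 1.76 times its CTR mean in VPA replicates 1 to 4, and the median well-counted gene 1.05, 1.06, 1.02 and 1.05 times. VPA replicates 1 and 2 held the highest level of 48 and 47 members, and VPA replicates 3 and 4 that of 19 each. Over the 6113 well-counted genes VPA replicates 1 to 4 held the highest VPA level of 1629, 1673, 1298 and 1513. Most often the lowest VPA level was in replicate 4, with 53 members. Within slice cultures 71, 72 and 74 the median ratio of VPA to CTR was 2.01, 1.89 and 2.04. The rule sets a lower limit to these ratios, so they do not bear on agreement between cultures.

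**Figure D2:**
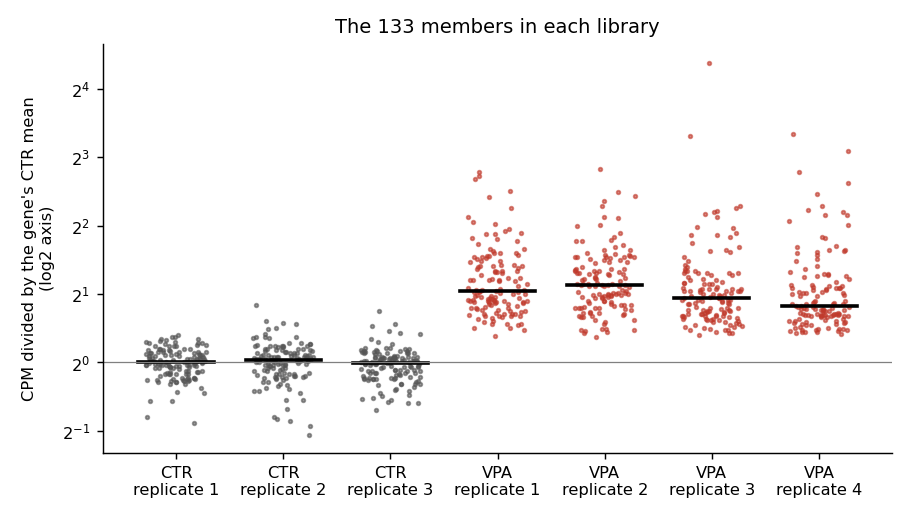
Each point is 1 of the 133 members in 1 library, as its CPM divided by the gene's mean over the CTR libraries on a log2 axis, with black bars for the median in each library. The medians of VPA replicates 1 to 4 are 2.05, 2.18, 1.93 and 1.76, and the separation of the groups follows from how the genes were chosen.

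Of the members, 95 were sorted by known role into 13 groups, and 38 were not sorted. The other well-counted genes were not sorted, so the group sizes have no background share beside them. The group with the highest median ratio was that of 8 neuropeptide, neuronal and synaptic genes, at 3.26, and 5 of the 8 met the rule under all 4 scalings. Since the roles were assigned after the members were known, the order of the groups is only a description. Npy (ENSMUSG00000029819, chr6:49822710-49829507) encodes neuropeptide Y, a secreted peptide of nerve cells that stimulates feeding. It was at 127, 197 and 119 CPM in CTR replicates 1 to 3 and at 979, 830.3, 3083 and 1255 CPM in VPA replicates 1 to 4. The lowest VPA library was thus 4.21 times the highest CTR library, and the means were 148 ± 42.9 (SD, n = 3) and 1537 ± 1046 CPM (SD, n = 4), with VPA replicate 3 well above the others. The ratio of the means was 10.4, and 6.90 without VPA replicate 3.

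Adora1 encodes an inhibitory receptor for adenosine. Its levels were 8.07, 16.7 and 8.05 CPM in CTR and 58.1, 47.9, 43.2 and 49.95 CPM in VPA libraries, where the 4 values lay close together. Cadm3, a cell adhesion protein of nerve cells, was at 11.1, 7.43 and 10.7 CPM in CTR and at 28.6, 29.2, 28.4 and 60.1 CPM in VPA libraries, so VPA replicate 4 stood apart. Mapt, which encodes the microtubule protein tau, was at 12.1, 12.8 and 8.72 CPM against 23.2, 24.99, 51.6 and 49.95 CPM, with VPA replicates 3 and 4 higher than 1 and 2. The same group holds Igsf8, Bex3, the adenylate cyclase Adcy1 and the vesicle protein Syt11, whose mean ratios lay between 1.89 and 3.18. Syt11, at 16.1, 19.99 and 14.8 CPM in CTR and 25.9, 39.0, 32.6 and 30.6 CPM in VPA libraries, was the only one of the 15 well-counted genes of a list of genes known to respond to HDAC inhibitors to meet the rule, which 2.26% of all well-counted genes met. Sat1, a polyamine acetyltransferase, was the other gene of the list wholly above CTR (59.5 to 82.2 CPM in CTR, 90.2 to 104 in VPA), making 2 of 15 beside 8.65% of all. Syt11 met the rule under 1 of the 4 scalings only. The list also holds Cdkn1a, a cell cycle inhibitor often raised by HDAC inhibitors, which was at 630 to 878 CPM in CTR and 691 to 952 CPM in VPA libraries and overlapped.

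**Figure D3:**
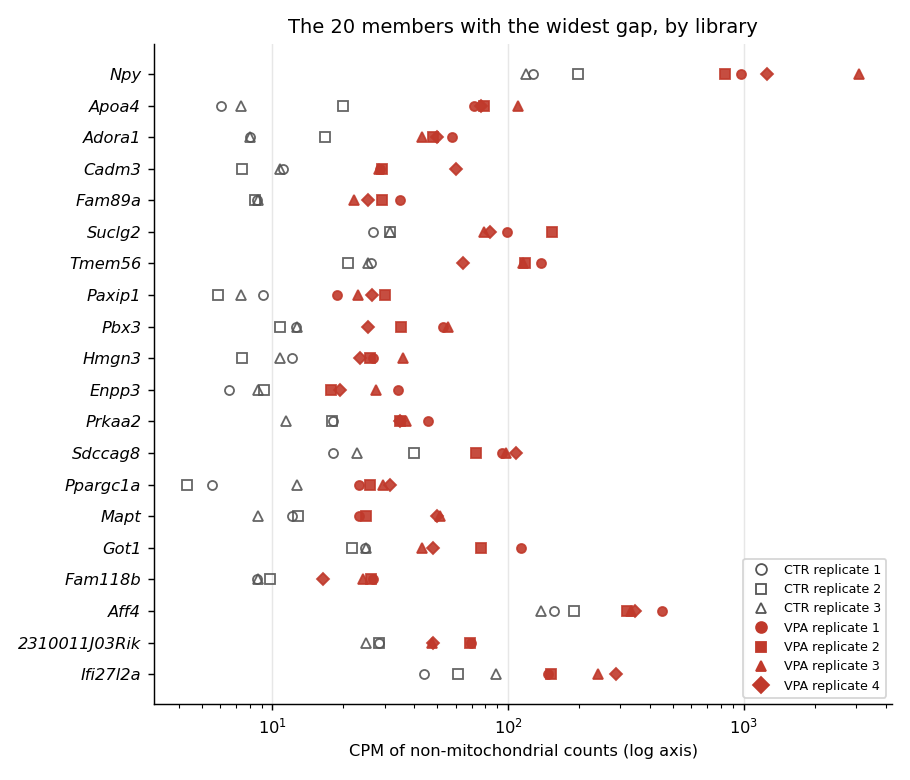
The 20 members with the widest gap, in descending order, with the CPM of each library on a log axis, open grey symbols for the 3 CTR and filled red symbols for the 4 VPA libraries. Npy is set furthest apart, between 119 and 197 CPM in CTR and between 830.3 and 3083 CPM in VPA libraries, while most of the others lie under 100 CPM in both groups.

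Lipid carriers and lipid enzymes made up 5 members, of which 2 met the rule under all 4 scalings. Apoa4 (ENSMUSG00000032080, chr9:46240696-46243459), an apolipoprotein of triglyceride-rich particles, was at 6.05, 19.99 and 7.38 CPM in CTR and 71.5, 79.2, 111 and 76.5 CPM in VPA libraries. Its mean was 7.58 times higher with VPA, and CTR replicate 2 held the highest of the CTR values. Without CTR replicate 2 the ratio was 12.6. Apoa4 rested on only 11 counts in CTR replicate 3 and 12 in CTR replicate 1. Hsd3b3 (mean ratio 3.10), a steroid dehydrogenase with close paralogs that reads could be shared with, the choline kinase Chkb (2.41), the sphingolipid regulator Ormdl3 (1.89) and the lipid kinase Pi4ka (1.76) complete the group.

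Of 9 members with roles in metabolic control or as metabolic enzymes, 5 met the rule under all 4 scalings. Metabolic control was represented by Ppargc1a and Prkaa2. Ppargc1a, a coactivator of mitochondrial and gluconeogenic genes, was at 5.55, 4.36 and 12.8 CPM in CTR and 23.2, 25.8, 29.5 and 31.6 CPM in VPA libraries. Prkaa2, the catalytic alpha 2 subunit of the energy sensor AMPK, was at 18.1, 17.9 and 11.4 CPM against 45.6, 34.7, 36.9 and 34.7 CPM. Got1, the cytosolic aspartate aminotransferase, was at 24.7, 21.8 and 24.8 CPM against 113, 76.7, 43.2 and 47.9 CPM, and its VPA values spread more than its CTR values. Sirt2, a deacetylase outside class I, had one of the smallest mean ratios in the set, 1.48.

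Of the 11 members with a role in the mitochondrion, 1 met the rule under all 4 scalings, Suclg2, which had the widest gap. It encodes the GTP-forming beta subunit of succinyl-CoA ligase, an enzyme of the citric acid cycle, and its levels were 26.7, 31.5 and 31.5 CPM in CTR and 99.2, 154, 79.0 and 83.6 CPM in VPA libraries. Cpt1a, which admits long-chain fatty acids to the mitochondrion, was at 53.4, 46.6 and 58.4 CPM against 75.1, 83.9, 112 and 105 CPM. It met the rule only narrowly and under 1 of the 4 scalings. Chchd10, a protein of the inner membrane organization, had a mean ratio of 2.07, the branched-chain dehydrogenase subunit Dbt 2.02 and the complex III subunit Uqcrfs1 2.02 (39.3, 56.1 and 44.3 CPM against 84.9, 145, 71.6 and 74.4 CPM).

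The most abundant member was mt-Nd6, a complex I subunit and the only member encoded by mitochondrial DNA. It was at 975 to 1517 CPM in CTR and at 1922 to 4506 CPM in VPA libraries, on a scale that leaves mitochondrial counts out of the denominator. Its share of the mitochondrial counts was 0.397 to 0.573% in CTR and 0.526 to 1.27% in VPA libraries, and these ranges overlapped. It shares 14 of its 519 bases with mt-Nd5 on the opposite strand, which had 25282 counts against 24112 for mt-Nd6 and overlapped between the groups (1212 to 2151 CPM in CTR, 1534 to 4676 CPM in VPA libraries).

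The proton pump and the lysosome supplied 7 members, and the rule left out 2 more genes of this kind, Neu1 and Atp6v1a. Of the 7, 3 met the rule under all 4 scalings. The vacuolar ATPase acidifies the lysosome with a soluble V1 sector that splits ATP and a membrane V0 sector that carries protons. Atp6v1e1, the E subunit of the V1 stalk, was at 191, 191 and 205 CPM in CTR and 374, 391, 386 and 331 CPM in VPA libraries, with little spread in either group. Atp6v1c1, the C subunit, was at 44.4, 42.5 and 38.9 CPM against 67.0, 72.9, 64.2 and 90.7 CPM. Atp6v1d, the D subunit of the rotor, was at 193, 228 and 179 CPM against 340.5, 394, 295 and 328 CPM.

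With Atp6v1a, 4 of the 8 well-counted V1 subunits met the rule, and none of the 4 well-counted V0 subunits did, beside 2.26% of all well-counted genes. Atp6v1d met it under 3 of the 4 scalings, all but the one with the mitochondrial rows included. Whether the sectors differ was not tested. The other V1 subunits, Atp6v1b2, Atp6v1f, Atp6v1g1 and Atp6v1h, overlapped between the groups. Atp6v1b2 was the clearest mixed case, at 83.7, 144 and 85.2 CPM in CTR and 309, 249.9, 86.3 and 260.0 CPM in VPA libraries, where VPA replicate 3 stayed at the CTR level. Among V0 subunits Atp6v0e did not overlap, at 145, 145 and 149 CPM against 196, 189, 203 and 175 CPM, but fell short of the 25%.

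**Figure D4:**
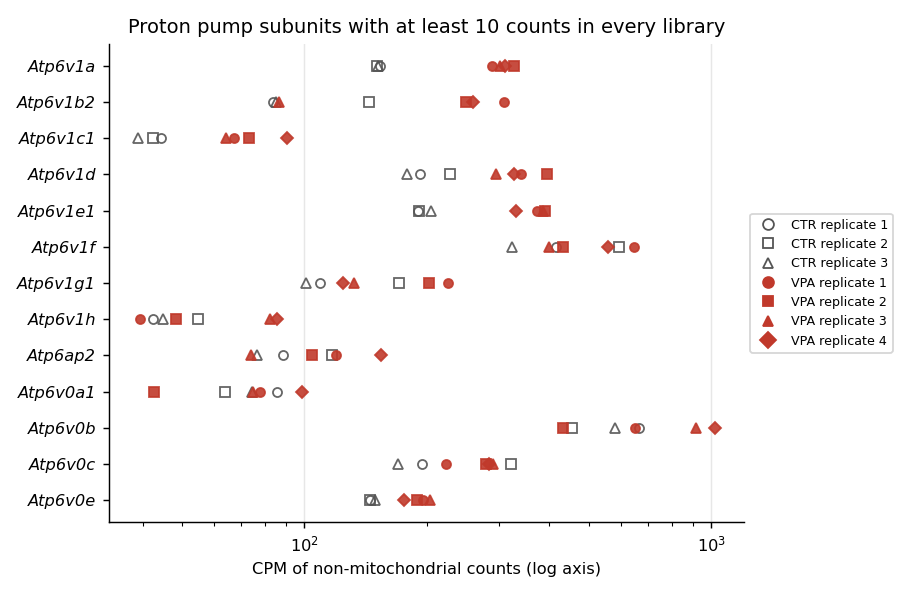
CPM on a log axis of the vacuolar ATPase genes with at least 10 counts in every library, V1 sector first, then the accessory protein Atp6ap2 and the V0 sector, open grey for CTR and filled red for VPA libraries. Atp6v1a, Atp6v1c1, Atp6v1d and Atp6v1e1 have all VPA libraries to the right of all CTR libraries by at least 25%, and most of the others overlap.

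Ctsl (ENSMUSG00000021477), the lysosomal protease cathepsin L, was at 812, 488 and 663 CPM in CTR and 1444, 2033, 2850 and 1196 CPM in VPA libraries. Its mean was 2.87 times higher with VPA. Gnptg, a subunit of the enzyme that tags proteins for the lysosome, had a mean ratio of 2.0, the ganglioside activator Gm2a 1.97 and the phospholipase B-like protein Plbd2 1.68. In a list of 46 well-counted lysosome and proton pump genes, 6 met the rule with VPA higher and 0 with VPA lower. Without the 25% margin, 10 lay wholly above CTR and 2, Hexa and Cd63, wholly below, beside 2.26% of all well-counted genes by the rule, 8.65% wholly above and 4.63% wholly below. The major membrane proteins and proteases Lamp1, Lamp2, Ctsb and Ctsd overlapped between the groups.

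Autophagy and vesicle traffic gave 10 members, of which 1 met the rule under all 4 scalings. Napa, the alpha SNAP protein that recycles fusion complexes, was at 51.9, 57.1 and 57.7 CPM in CTR and 96.5, 104, 109.5 and 95.8 CPM in VPA libraries, narrow in both groups. Uvrag, a partner of the lipid kinase of autophagosome formation, was at 23.2, 27.2 and 26.2 CPM against 59.0, 75.4, 34.8 and 49.95 CPM. C9orf72 (mean ratio 2.57), the lipid transfer protein Atg2a (2.13), the autophagosome carrier Fyco1 (1.82), the endocytic adaptor Picalm (1.68), Snx16, Aagab, Rhod and Mon2 complete the group. Of 23 well-counted autophagy genes on a separate list, Uvrag alone met the rule, whereas 7 lay wholly above CTR and 0 wholly below, beside the same background of 2.26%, 8.65% and 4.63%. Uvrag met it under 1 of the 4 scalings. Map1lc3b, the autophagosome marker LC3B, lay wholly above CTR (149.6 to 203 CPM in CTR, 238 to 291 in VPA), while Sqstm1 (1257 to 2473 CPM in CTR, 1255 to 2038 in VPA) and Gabarap overlapped.

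Transcription and chromatin factors gave 12 members, of which 5 met the rule under all 4 scalings. Pbx3, a homeodomain partner of Hox proteins, was at 12.6, 10.8 and 12.8 CPM in CTR and 52.7, 35.2, 55.8 and 25.5 CPM in VPA libraries. Paxip1, a component of histone H3 lysine 4 methyltransferase complexes, was at 9.07, 5.89 and 7.38 CPM against 18.8, 30.1, 23.2 and 26.5 CPM. Hmgn3, a nucleosome-binding protein, was at 12.1, 7.43 and 10.7 CPM against 26.8, 25.8, 35.8 and 23.4 CPM. These 3 genes are weakly expressed, and their CTR values were under 13 CPM throughout.

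Aff4, the scaffold of the super elongation complex that releases paused RNA polymerase II, was more abundant. It was at 156, 191 and 138 CPM in CTR and 449.5, 319.8, 334 and 347 CPM in VPA libraries, with VPA replicate 1 above the others. Further members of the group are the zinc finger gene Zfp516 (mean ratio 2.46), the orphan receptor Nr6a1 (2.28), Zfp869, the SUMO ligase Pias2 (1.98), the GATA factor Gata6 (1.89), the corepressor Bcor (1.80), the MAX partner Mxi1 (1.78) and the methylcytosine dioxygenase Tet2 (1.67). Zfp869 belongs to a large family of similar zinc finger genes that reads could be shared with. This was not tested, so its counts are uncertain.

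Ligands and kinase signalling counted 10 members, of which 6 met the rule under all 4 scalings. Bmp2, a bone morphogenetic protein made by liver endothelium and known to induce hepcidin, was at 45.9, 51.5 and 48.3 CPM in CTR and 83.1, 143, 77.9 and 237 CPM in VPA libraries. Ereg, the epidermal growth factor receptor ligand epiregulin, was at 35.8, 30.5 and 27.5 CPM against 83.1, 50.4, 69.5 and 172 CPM. VPA replicate 4 held the highest level of both. Cxcl14, a chemokine, was at 45.4, 56.9 and 30.2 CPM against 115, 145, 92.7 and 136 CPM. Kinases of the group are Pak1 (mean ratio 2.29), Pdpk1 (1.85) and Prkaca (1.70), the catalytic subunit of protein kinase A.

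The remaining groups were smaller. Sdccag8, Ahi1 and Cdk20, genes of the cilium and centrosome, had mean ratios of 3.47, 2.08 and 2.77. Sdccag8 was at 18.1, 39.7 and 22.8 CPM in CTR and 93.8, 73.3, 97.9 and 108 CPM in VPA libraries. Interferon-responsive members were Ifi27l2a, at 43.9, 61.2 and 89.3 CPM in CTR and 148, 152, 241 and 289 CPM in VPA libraries, and the RNA sensor Ifih1 (1.76). Ifi27l2a has close paralogs that reads could be shared with, which was not tested, so its counts are uncertain. The 7 members of the endoplasmic reticulum and secretory pathway, among them the mannosidase Man1a, Hspa13, Emc7 and the signal peptidase subunit Spcs3, had mean ratios of 1.68 to 2.66, 8 genes of RNA binding and ubiquitin enzymes 1.52 to 2.76, and the 3 transporters Nipa2, Slc30a1 and Slc12a7 1.77 to 2.13. Under all 4 scalings the rule was met by 1 of the 7 endoplasmic reticulum members and 1 of the 3 transporters. It was met there by 2 of the 8 RNA binding and ubiquitin genes, 2 of the 3 cilium and centrosome genes and 1 interferon-responsive member. Of the members not sorted, Tmem56 had the seventh widest gap, at 26.2, 21.0 and 25.5 CPM against 138, 118, 116 and 64.2 CPM. Fam89a was at 8.57, 8.46 and 8.72 CPM against 34.9, 29.2, 22.1 and 25.5 CPM, with CTR values that hardly differed. Enpp3, a nucleotide pyrophosphatase of the cell surface, was at 6.55, 9.23 and 8.72 CPM against 34.0, 17.8, 27.4 and 19.4 CPM. Fam118b was at 8.57, 9.74 and 8.72 CPM against 26.8, 26.3, 24.2 and 16.3 CPM. In these genes and in 2310011J03Rik (28.2, 28.4 and 24.8 CPM against 69.7, 68.6, 47.4 and 47.9 CPM) VPA replicate 1 held the highest value. Ccdc127, of unclear function, had a mean ratio of 6.06 but varied from 146 to 782 CPM among VPA libraries.

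**Figure D5:**
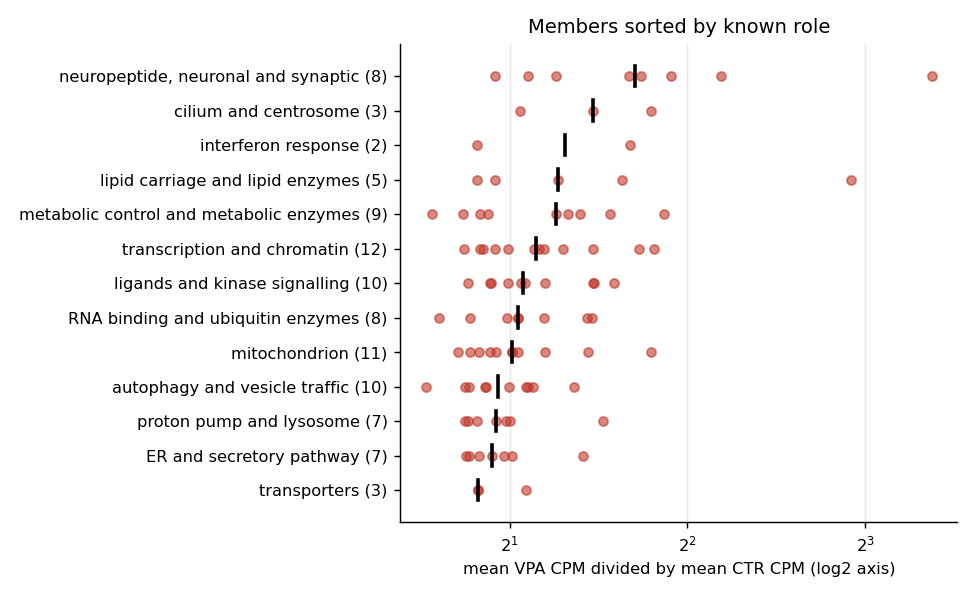
Each point is 1 of the 95 members sorted by known role, placed by its mean VPA CPM divided by its mean CTR CPM on a log2 axis, with a black bar for the median of the role and the number of genes in brackets. The neuropeptide, neuronal and synaptic genes have the highest median, 3.26, and Npy (10.4, or 6.90 without VPA replicate 3) and Apoa4 (7.58, or 12.6 without CTR replicate 2) lie furthest to the right. The roles were assigned after the members were known, so their order is only a description.

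Other pathway lists held few members. Of 23 well-counted PPARA targets, genes of fatty acid use that answer to the receptor PPARA, 2 met the rule, Cpt1a and the left-out Creb3l3, and 6 lay wholly above CTR and 0 wholly below, where the background was 2.26%, 8.65% and 4.63%. Of 30 mitochondrial carrier and respiratory chain genes, Uqcrfs1 alone met the rule, and of 47 translocon and secretory pathway genes, Spcs3 alone, at 8.07, 12.0 and 10.1 CPM in CTR and 15.2, 22.0, 25.3 and 16.3 CPM in VPA libraries. Uqcrfs1 met it under 2 of the 4 scalings and Spcs3 under 1. No well-counted gene met it with VPA higher among 13 of the lipid droplet and lipase list, 25 of the ER chaperone list, 24 of the NRF2 list, 38 of the ubiquitin and proteasome list, 16 of the peroxisome list, 27 of the sterol and fatty acid synthesis list and 17 of the junction list. With VPA lower, which 0.900% of all well-counted genes met, it was met by Ugdh of the NRF2 list, Fasn of the synthesis list and Cldn3 of the junction list. The genes wholly above and wholly below CTR numbered 0 and 7 in the synthesis list, 0 and 1 in the NRF2 list, 2 and 2 in both the ER chaperone and the junction list, 2 and 1 in the ubiquitin list and 4 and 1 in the translocon list. They numbered 3 and 0 in both the respiratory chain and the peroxisome list and 1 and 0 in the lipid droplet list. The 20 hepatocyte, 19 activated HSC, 6 endothelial, 6 macrophage, 5 bile duct and 3 proliferation markers that were well counted held 0 genes that met it with VPA higher, and 4 HSC markers (Col1a1, Col1a2, Tnc and Vim), Cldn4 and Mcm3 met it with VPA lower, beside the same 0.900%. Of the HSC markers 2 lay wholly above and 6 wholly below CTR, of the hepatocyte markers 1 and 0, of the bile duct and of the proliferation markers 0 and 1 each, and of the endothelial and macrophage markers 0 and 0. edgeR called Creb3l3 of the PPARA list and 0 genes of the other 18 lists.

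The threshold cuts through a continuous range. Just inside it were Fam168a (124, 137 and 134 CPM in CTR and 260.1, 171, 183 and 212 CPM in VPA libraries), Ccdc171 and Ddt. Just outside were Phc3 (47.9, 49.5 and 45.6 CPM against 61.7, 99.98, 72.7 and 62.2 CPM), Far1 and Hist1h1e. With any gap above 0 in place of 25%, 524 genes besides the 5 left out were higher in every VPA library, and with 50%, 44 were.

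The genes with the widest gap in the mirrored set were Anxa3, Msr1, Tapbpl, Spr and Bcl7c. Anxa3, an annexin, was at 252, 133 and 257 CPM in CTR and 29.5, 22.9, 54.8 and 39.8 CPM in VPA libraries. Msr1, a macrophage scavenger receptor, was at 71.1, 69.5 and 65.8 CPM against 8.94, 29.7, 23.2 and 28.5 CPM. The summed macrophage markers overlapped between the groups, and the part of cell composition in the level of Msr1 was not tested. The median mean level was 75.8 CPM for the lower genes and 50.4 CPM for the members, and the median gene span was 15525 bases for the lower genes, 31190 for the members and 28489 for all well-counted genes.

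Members were spread over the genome, on the X chromosome, the mitochondrial genome and each autosome, and only 3 pairs lay within 100 kb of each other (Ctsl with Cdk20, Commd6 with Uchl3, Tstd3 with Usp45). Another annotated gene overlapped 82 members, 69 of them on the opposite strand. In 29 members an overlapping gene held at least 10% of the member's counts, which limits the values of those whose reads fall in the shared stretch, since the use of strand in counting is not given in the sources used here. Where the reads fall cannot be seen from gene counts. These 29 formed 36 pairs, in which the overlapping gene was lower with VPA by its mean in 12 and lay wholly above CTR in 5. Among the 5 are Tstd3 and Usp45, which the rule itself places wholly above CTR. Of all well-counted genes 8.65% lay wholly above CTR, but some of the overlapping genes were not well counted. Fam118b was crossed by Srpr, which had 1121 counts against 199 and was at 60.0 to 76.1 CPM in CTR and 72.4 to 143 CPM in VPA libraries. Tstd3 and Usp45 are both members and overlap at their starts.

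RefSeq promoters were matched to 100 of the 133 members (75.2%) and to 38 of the 55 lower genes (69.1%). Since both are under 80%, a comparison of promoter composition or motifs over these sets is void, and the matches are given only as a description of the windows read. Windows were searched on both strands for 10 motifs. The E-box TCACGTG was found in 13 of the 100 windows, those of Fam118b, Aff4, Napa, Nipa2, Pak1, Adcy1, Cdk20, Bex3, Picalm, Gnptg, Prkaca, Slc12a7 and Ddt. Napa held 3 separate copies, as printed, and Picalm 2 pairs of overlapping readings. It was in 6.88% of the 4882 windows matched to well-counted genes, from which the members were drawn, and in 3.77% of all 32851 promoter entries. The GC box GGGCGG was in 74 of the 100 windows, Npy among them, in 69.8% of those of the well-counted genes and in 35.7% of all entries. The other motifs are given as members' windows of 100 and as the share of the well-counted genes' windows. The CRE TGACGTCA was in 7 (3.79%), the UPR element core TGACGTG in 4 (3.26%), the antioxidant element core TGACNNNGC in 16 (15.4%) and the nuclear receptor motif AGGTCA in 14 (11.4%). The ERSE core CCACG was in 46 (49.4%), the CCAAT box CCAAT in 32 (37.6%), the TATA box TATAAA in 4 (6.82%) and the DR1 pair in 0 (0.737%).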

How the data were processed

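RNA of mouse PCLS was sequenced as 3 CTR and 4 VPA libraries. The authors made 3′ end libraries with the QuantSeq FWD kit, sequenced single-end reads on a NovaSeq, trimmed them, and mapped them to mm10 (GRCm38) with STAR; StringTie is also named in the submitters' processing notes. They deposited whole-number read counts per Ensembl gene without normalization. Which program counted the reads, whether strand was used and what became of reads with several positions are not given in the sources used here. With 3′ end libraries a count does not grow with gene length.

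Groups and culture numbers came from the sample labels. CPM were computed from the counts after leaving out genes whose symbol starts with mt-, the rule was applied, and the library totals were replaced in turn by sums with those genes, by TMM totals (edgeR 4.0.16) and by size factors (DESeq2 1.42.0). Where a library has no count, its level may still be as high as 3 counts would give (0.769 to 3.16 CPM by library, counting error only). Symbols came from GENCODE on GRCm38, which left 260 genes without one. The edgeR quasi-likelihood test with Benjamini-Hochberg adjustment (threshold 0.05, condition as the only term, R 4.3.3) ran on all genes after its own low-count filter. It was first run on simulated counts with less spread between libraries than these data had. That run therefore does not show how many changes the test missed here. limma 3.58.1 (voom) and DESeq2 were alternatives. Other alternatives were count minimums of 5 and 20, at least 1 count in the VPA libraries, all gene types, other ratios, replicate blocks, and the omission of single libraries. The lower count under DESeq2 size factors, the members met under every scaling and the column divisions under other scalings were chosen after seeing the data.

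The members and the 19 gene lists were chosen with earlier results of these data known, and the 13 roles were assigned after the members were known. Named genes are the 20 members with the widest gap, members on a list, the 3 on each side of the threshold and the 5 widest of the mirrored set. Examples of the roles and the genes of lists named for comparison were chosen after their values were seen. Genes were matched to RefSeq promoters of GRCm38.p6 by identifier, symbol or synonym. The qPCR, protein and histology data and the human slices were not analysed here. The values of a few genes are not reported here.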

Additional observations from a re-analysis of the deposited data

Results flagged for a closer look

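In 5 members a single VPA library lay far from the other 3 by Dixon's test at the 95% level. Cadm3 was at 60.1 CPM in VPA replicate 4 and at 28.4 to 29.2 CPM in the others. Gskip, a scaffold of protein kinase A, was at 49.1 CPM in VPA replicate 2 and at 30.4 to 32.6 CPM in the others. VPA replicate 1 was the high library for Zfp869 (34.0 CPM, others 27.5 to 28.5), Mon2 (99.2 CPM, others 85.6 to 86.7) and Tet2 (67.0 CPM, others 48.4 to 51.0). Chance flags about 1 in 20 groups, but this rate does not apply to VPA values that were used to choose the genes and that the rule keeps from being low. In all 5 the library that stood apart was the highest.

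VPA replicate 2 also stood apart from the other VPA libraries in depth, with 3102450 counts on genes and 2360538 counts without mitochondrial genes.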

How the results depend on the processing

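The number of members, 133, was 56 with mitochondrial rows in the library total (54 of them members), 83 with TMM and 76 with DESeq2 size factors (all members). It was 524 with any ratio above 1 and 44 with a ratio of at least 1.5. Leaving out 1 library gave 209 to 317 genes, which include all 133, because fewer columns have to separate. The lower genes, 55, became 132, 100 and 100 under the same 3 scalings, 22 at a ratio of at least 1.5, and 67 to 148 with 1 library left out. Minimums of 5 or 20 counts or 1 count in VPA libraries, and all gene types, kept the number of members within 1.5 times, at 104 to 185.

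edgeR called 1 gene, Creb3l3. DESeq2 called 154, edgeR with no filter on low counts 10, and edgeR with at least 10 counts in all 7 libraries 36; the cause was not tested. Leaving out 1 library gave 0 to 2 calls. With a replicate block by replicate number 0 genes were called and with a replicate block by slice culture 0. Libraries with the same culture number deviated together only weakly (correlations of 0.107, 0.0256 and 0.0546 for cultures 71, 72 and 74). Counting error also lowers such correlations, so they cannot show whether the libraries are pairs. Because the labels do not say what a culture number marks, the numbers were not taken as pairs.

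Of 319 alternative values for 29 named members, 318 moved by less than the spread between replicates and 0 changed direction. The exception was Atp6v1e1, whose log2 ratio was 0.76 in place of 0.92 with the mitochondrial rows included. The rule fixes the direction when a library is left out and within slice cultures. The unchanged direction there is therefore no support for the members. Depth limits mainly the 29 members whose lowest count was under 20.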
